A study of Mus musculus with 2 samples.

Results

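Pmp22, Mbp, Mag, Prx, Egr2, Sox10 and S100b are 7 genes used by Schwann cells, the glia of peripheral nerve, and they were chosen by name as Schwann cell and myelin genes out of 55536 named genes in the deposited tables. The study measured total RNA by sequencing in gastrocnemius, a calf muscle of the hind limb, from female B6CASTF1/J mice at 10 days of age. These mice are F1 hybrids of C57BL/6J and CAST/EiJ. The series holds 1 group of 2 libraries, biological replicates 1 and 2, each made from 300 ng of RNA with ERCC spike-ins, which are synthetic RNAs added in known amounts. The replicates are separately numbered tissue samples that share 1 donor record, and the labels do not say that each came from 1 animal, so the spread between them may in part be technical. With 2 libraries of the same kind there is no second condition, and no test across groups could be made. The values below are levels in whole muscle, with the difference between the replicates as their error.

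In peripheral nerve a Schwann cell wraps a single large axon and compacts its membrane into myelin, a process that is under way in mice during the first weeks after birth. SOX10 holds cells in the Schwann lineage and works with EGR2 (also called Krox20) to switch on the genes of myelin, among them Pmp22, Mbp, Mag and Prx. PMP22 and MBP belong to compact myelin, MAG faces the axon, periaxin (Prx) ties the outer Schwann cell membrane to the basal lamina through DRP2, and S100B is a calcium-binding protein used to mark Schwann cells. A muscle holds Schwann cells in its nerve branches and at the neuromuscular junction, so their RNA is diluted by that of muscle fibres and connective tissue. In such bulk samples fewer cells of a type and less RNA per cell cannot be told apart.

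Expected counts summed to 35925081 in replicate 1 and 39969380 in replicate 2, of which the spike-ins took 0.72% and 0.798%. The tables come in 2 formats, one with the columns of RSEM and one with those of kallisto, and TPM, a level per length of transcript scaled to the same total in each table, is taken from the RSEM format unless the kallisto format is named. Over the named genes past the detection limit described below, the median over genes of the TPM ratio of replicate 1 over replicate 2 was 1.14 (0.19 on the log2 scale). Counts of the 2 libraries differed by more than sampling noise (chi-square per degree of freedom 66.5), which shows only that the tables do not hold 1 library deposited again.

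All 7 genes reached the detection limit of 1 TPM in each library. The same held for 22.6% of all named genes and for 52.3% of the 22015 nuclear protein coding genes. Together the 7 genes reached 223.5 TPM in replicate 1 and 197.2 TPM in replicate 2, which was 0.0213% ± 0.0019 of all gene TPM (SD, n = 2). Pmp22 and Mbp held 87.5% of that sum in replicate 1 and 88.5% in replicate 2. In counts the 7 genes summed to 11989 in replicate 1 and 11953 in replicate 2. This was 0.0336% and 0.0301% of the counts of named genes, which leave out the spike-ins.

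**Figure D1:**
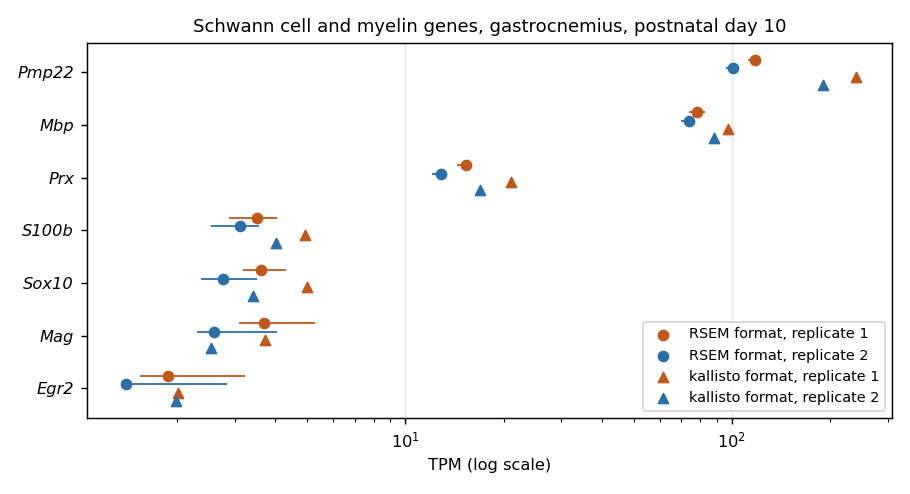
TPM of each gene on a log axis, highest mean at the top: circles are the RSEM-format values with the interval bounds deposited in the same table as lines, and triangles are the kallisto-format values, in replicate 1 (orange) and replicate 2 (blue). In the RSEM format Pmp22 and Mbp lie between 73.7 and 117.6 TPM, Prx at 15.3 and 12.8 TPM, and the other 4 genes between 1.39 and 3.70 TPM.

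The lineage factors were low. Sox10, on chromosome 15 (79154908 to 79165240, minus strand, mm10), had 3.60 TPM in replicate 1 and 2.77 TPM in replicate 2, from 252 and 208 counts. Egr2, a zinc finger factor on chromosome 10 (67535475 to 67542188, plus strand), had 1.88 TPM in replicate 1 and 1.39 TPM in replicate 2, from 104 and 114 counts. Egr2 was the lowest of the 7 genes in both libraries, and only 5.13% of the detected coding genes in replicate 1 and 4.28% in replicate 2 stood below it. For Sox10 those shares were 18.6% and 17.95%. The deposited interval bounds of each gene overlapped between the libraries. For Egr2 the TPM was higher in replicate 1 while the count was lower there, and its deposited mean transcript length was 2057 bases in replicate 1 and 2650 bases in replicate 2.

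The forms of Sox10 and Egr2 rest on these few counts. The 466-codon coding forms of Sox10, which hold the full-length factor, made up 92.2% of its TPM in replicate 1 and 83.3% in replicate 2 in the RSEM format, and 94.1% in both in the kallisto format. They are Sox10-201 and Sox10-203, which share all 2713 bases of Sox10-201 and differ by 67 further bases in Sox10-203, whose start lies 750 bases upstream of that of Sox10-201. Sox10-203 was listed at 0 in replicate 1 and at 51.0% in replicate 2 in the RSEM format, and at 38.8% and 79.7% in the kallisto format. Which of these starts led therefore differed between the libraries in both formats, while the full coding form held 83.3% or more in every table. Sox10-202, a 205-codon model, was listed at 0 in replicate 1 and at 16.7% in replicate 2 in the RSEM format.

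Egr2-201, the 470-codon form, led in every table, at 40.2% of Egr2 TPM in replicate 1 and 84.9% in replicate 2 in the RSEM format and at 62.9% and 72.5% in the kallisto format. Egr2-202, of 420 codons, took 12.6% in replicate 1 in the RSEM format and 30.7% in the kallisto format, and was listed at 0 in replicate 2 in both. Egr2-203 held 13.3% and 3.46%, and the 356-base Egr2-207 held 26.6% and 11.7%, in the RSEM format. In the kallisto format Egr2-207 was listed at 0 in both libraries, and Egr2-203 and Egr2-206 at 0 in replicate 1 and at 11.1% and 16.4% in replicate 2. The shorter forms of Egr2 thus had no value on which both formats and both libraries met.

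The 250 bases before the annotated start of the leading Egr2 form are shown because Egr2 is also an immediate early gene, a class whose promoters often hold the CArG box, the site of serum response factor. The sequence is RefSeq's on GRCm38.p6 (mm10), chr10:67537619-67537868, plus strand, with motifs in capitals: ATTGG, the reverse strand of the CCAAT box, 121 bases before the start, and a CArG box at 72 bases.
Egr2: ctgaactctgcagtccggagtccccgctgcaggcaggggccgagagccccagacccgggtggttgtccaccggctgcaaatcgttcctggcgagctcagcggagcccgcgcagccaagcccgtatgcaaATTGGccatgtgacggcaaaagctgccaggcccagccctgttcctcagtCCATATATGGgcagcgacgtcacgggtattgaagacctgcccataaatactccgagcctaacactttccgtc
A CArG box on either strand stood in 1.47% of the 32851 mouse promoter windows of this length, and CCAAT or its reverse in 33.8%. These are matches of letters and not shown sites. The CArG box was added to the search after the sequences were seen, so the 1.47% cannot be used to weigh the match found here.

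The compact myelin genes were the highest of the 7. Pmp22 lies on chromosome 11 (63128982 to 63159547, plus strand) and codes for a membrane protein with several transmembrane segments. It had 117.6 TPM in replicate 1 and 100.8 TPM in replicate 2 (mean 109 ± 11.9, SD), from 5435 and 5302 counts. The deposited interval bounds ran from 111.7 to 119.5 TPM in replicate 1 and from 95.9 to 102.8 TPM in replicate 2 and did not overlap. The fold of 1.17 between the libraries was close to the median of 1.14 over genes. In the kallisto format Pmp22 had 239.6 TPM in replicate 1 and 189.5 TPM in replicate 2, which was 2.04 and 1.88 times its RSEM-format TPM, against a median of 1.48 and 1.41 times over detected coding genes. Of this, 77.8 TPM in replicate 1 and 57.1 TPM in replicate 2 were the non-coding Pmp22-205, described below. The coding forms had 161.7 and 132.4 TPM in the kallisto format, against 115.06 and 100.35 TPM in the RSEM format.

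Mbp codes for the cytoplasmic protein that holds the inner faces of the compact membrane together. It had 77.9 TPM in replicate 1 and 73.7 TPM in replicate 2 (mean 75.8 ± 2.96, SD), from 3779 and 4032 counts, and its deposited bounds overlapped. In the kallisto format it had 97.5 TPM in replicate 1 and 88.2 TPM in replicate 2. Pmp22 stood above Mbp in both libraries, by 1.51 and 1.37 times in the RSEM format and by 2.46 and 2.15 times in the kallisto format. Of the detected coding genes, 95.8% in replicate 1 and 95.1% in replicate 2 lay below Pmp22, and 93.5% and 93.3% lay below Mbp.

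Pmp22 has more than 1 promoter: in rodents the upstream first exon is tied to myelinating Schwann cells, and the downstream one is also used outside the nervous system. All 4 coding transcripts of Pmp22 give the same 160-codon protein, so the choice of start does not change the protein. Pmp22-204 begins at the upstream start, and Pmp22-201 begins 2530 bases downstream. The formats disagreed on which led. In the RSEM format Pmp22-204 held 25.4% of the gene's TPM in replicate 1 and 21.9% in replicate 2, and Pmp22-201 held 68.9% and 72.2%. In the kallisto format Pmp22-204 held 67.5% and 65.0%, and Pmp22-201 held 4.13e-07% and 4.90%.

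The libraries gave the same leader within each format, so the disagreement lay between the tables and not between the replicates. These transcripts share 1653 bases and differ by 147 bases in Pmp22-201 and 169 bases in Pmp22-204. In the kallisto format the 388-base non-coding Pmp22-205 took another 32.5% of TPM in replicate 1 and 30.1% in replicate 2, but 3.18% and 2.61% of the gene's counts. The RSEM format gave it 2.15% and 0.42% of TPM. Its effective length, the number of positions from which a fragment can start, was 289 bases in the RSEM-format table of either library, and 101 and 92.6 bases in the kallisto-format tables of replicates 1 and 2. Over the 4 tables the share of Pmp22 TPM from the upstream start thus ran from 21.9% to 67.5%. As a share of the gene's counts the kallisto format put 96.8% in replicate 1 and 90.7% in replicate 2 there, and the RSEM format 26.7% and 22.95%.

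Of the 4 RefSeq windows of Pmp22, those of 250 bases before the starts nearest to Pmp22-204 and Pmp22-201 are shown because the formats gave these transcripts unlike shares. They lie on the plus strand of GRCm38.p6, at chr11:63128732-63128981, which ends just before the start of Pmp22-204, and at chr11:63131207-63131456, before a RefSeq start that lies 55 bases upstream of that of Pmp22-201. Capitals mark ATTGG, the reverse of CCAAT, and CCGCCC, the reverse of the GC box GGGCGG.
Pmp22 upstream start: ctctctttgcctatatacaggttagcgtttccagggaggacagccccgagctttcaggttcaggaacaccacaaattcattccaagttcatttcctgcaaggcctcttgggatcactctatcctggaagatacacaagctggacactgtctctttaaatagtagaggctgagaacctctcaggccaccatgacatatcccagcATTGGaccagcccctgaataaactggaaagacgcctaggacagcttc
Pmp22 downstream start: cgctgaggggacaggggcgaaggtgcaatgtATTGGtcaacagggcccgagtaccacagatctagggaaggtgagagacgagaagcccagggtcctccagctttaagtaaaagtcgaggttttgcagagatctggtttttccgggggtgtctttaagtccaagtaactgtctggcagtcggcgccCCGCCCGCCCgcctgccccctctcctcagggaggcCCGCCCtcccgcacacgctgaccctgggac
The upstream window had a GC content of 48.8%, 1 CCAAT match at 47 bases before the start and no GC box. The downstream window had a GC content of 61.2%, 1 CCAAT match at 219 bases and 3 GC boxes at 65, 61 and 30 bases, of which the farthest 2 overlap. Over all windows the median GC content was 52.4%, and 32.7% held a GC box on either strand.

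Mbp also has distant starts: the upstream start makes the golli transcripts, known from brain and immune cells, and the downstream start makes the classic myelin forms. In the annotation the nearest starts of these groups lay 79100 bases apart. The RSEM format put 1.09% of Mbp TPM in replicate 1 and 0.502% in replicate 2 at the upstream group, and the kallisto format put 30.7% and 27.5% there. Nearly all of this kallisto-format share was Mbp-201, of 250 codons, at 29.5% and 27.0% in the kallisto format and at 0.02% and 0.10% in the RSEM format. The classic group held the larger share in every table, 98.5% and 99.5% in the RSEM format and 69.1% and 72.5% in the kallisto format.

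Within the classic forms the cassette exons of Mbp set the size of the protein. Mbp-211, of 128 codons, led in the RSEM format at 56.4% in replicate 1 and 57.0% in replicate 2, against 12.4% and 21.6% in the kallisto format. Mbp-212, of 169 codons, held 23.2% and 28.7% in the RSEM format and led in the kallisto format at 30.3% and 36.1%. Mbp-211 lies wholly within Mbp-212, which adds 134 bases. Mbp-215, of 154 codons, was listed at 0 in both libraries in the RSEM format and held 22.1% and 14.1% in the kallisto format, and the 638-base Mbp-209 held 13.1% and 10.4% in the RSEM format, against 1.30e-05% and 0 in the kallisto format.

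Among transcripts that could carry it, the 78-base cassette exon, which is included more in early myelin, was in 19.2% of TPM in replicate 1 and 11.6% in replicate 2 in the RSEM format and in 24.9% and 14.9% in the kallisto format. The 123-base exon was in 42.6% and 40.3% in the RSEM format and in 35.0% and 37.0% in the kallisto format. These shares count Mbp-201, of the upstream group, among the forms without each exon. Counted so, forms without the 78-base exon and forms without the 123-base exon each held the larger share in all 4 tables. Mbp-201 held 29.5% and 27.0% of Mbp TPM in the kallisto format. For the 123-base exon the kallisto-format shares therefore do not show which was larger within the classic forms. A 33-base exon was in 93.7% and 96.5% in the RSEM format and in 66.6% and 72.1% in the kallisto format. Here too Mbp-201 was counted among the forms without the exon, and in the kallisto format it made up most of their TPM. It had 28.7 TPM in replicate 1 and 23.8 TPM in replicate 2, and the next of those forms, Mbp-216, had 2.39 and 0.634 TPM. The lower kallisto-format shares therefore do not show less of this exon within the classic forms.

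**Figure D2:**
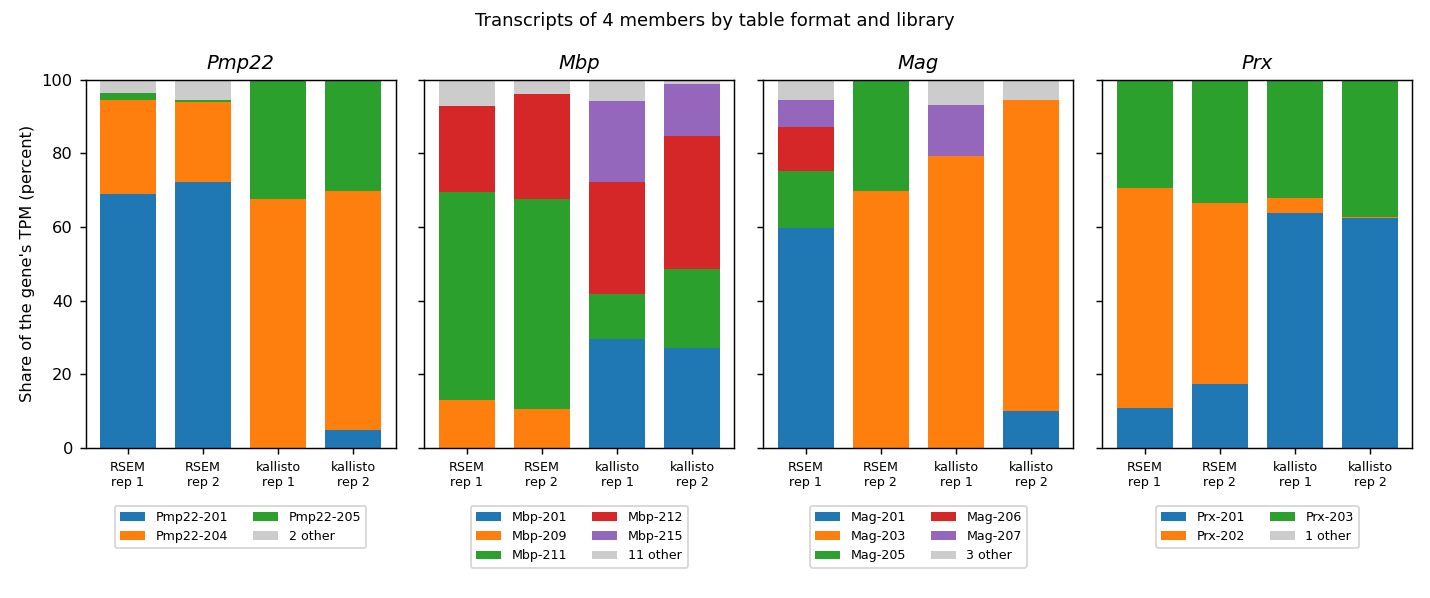
Stacked bars give each transcript's percent of its gene's TPM, for Pmp22, Mbp, Mag and Prx, with the RSEM format of replicates 1 and 2 on the left and the kallisto format of replicates 1 and 2 on the right of each panel. Transcripts under 10% in every table are summed in grey. Pmp22-201 fills 68.9% and 72.2% of the RSEM bars and 4.90% or less of the kallisto bars, and for Mag the leading transcript differs between the RSEM bars of the replicates.

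The genes of the axon-facing and outer Schwann cell membrane lay between and below. Prx, on chromosome 7 (27499324 to 27520214, plus strand), had 15.3 TPM in replicate 1 and 12.8 TPM in replicate 2 (mean 14.1 ± 1.75, SD), from 2106 and 2010 counts. Its deposited bounds, 14.4 to 15.7 TPM in replicate 1 and 12.04 to 13.18 TPM in replicate 2, did not overlap. As a fold this was 1.19, again close to that median. Mag, an adhesion protein of the immunoglobulin family on chromosome 7 (30899176 to 30914873, minus strand), had 3.70 TPM in replicate 1 and 2.59 TPM in replicate 2 (mean 3.15 ± 0.785, SD), from 176 and 149 counts. The bounds for Mag overlapped.

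Prx makes a long protein, L-periaxin, and a short one, S-periaxin, by retaining an intron, and here the formats met. The 1391-codon forms held 70.7% of Prx TPM in replicate 1 and 66.4% in replicate 2 in the RSEM format and 67.7% and 62.6% in the kallisto format. Prx-203, of 148 codons, held 29.3% and 33.6% in the RSEM format and 32.3% and 37.3% in the kallisto format. The long form led in all 4 tables. Its start was less certain: of the long transcripts, Prx-202, from the upstream start, held 59.95% and 48.96% in the RSEM format and 3.99% and 0.221% in the kallisto format, and Prx-201, from a start 8482 bases downstream, held 10.7% and 17.4%, and 63.8% and 62.4%. They share 4356 bases and differ by 141 bases in Prx-201 and 485 in Prx-202.

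The window before the upstream Prx start is shown as one on which the formats gave unlike shares. It lies at chr7:27499074-27499323 on the plus strand of GRCm38.p6, with the 1 CCAAT match, 73 bases before the start, in capitals, and a GC content of 56.4%.
Prx upstream start: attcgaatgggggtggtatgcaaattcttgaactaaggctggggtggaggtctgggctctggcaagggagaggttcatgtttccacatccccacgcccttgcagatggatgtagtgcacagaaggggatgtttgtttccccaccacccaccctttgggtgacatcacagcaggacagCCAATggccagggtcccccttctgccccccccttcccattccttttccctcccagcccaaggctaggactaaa

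Mag makes a short and a long form that differ in the cytoplasmic tail, set by a 45-base exon whose inclusion gives the short one, which is the main form of mature peripheral nerve. Among transcripts that reach it, this exon was in 89.1% of TPM in replicate 1 and 100% in replicate 2 in the RSEM format and in 85.1% and 100% in the kallisto format. The long form of 627 codons, Mag-207, held 7.32% in replicate 1 in the RSEM format and 13.8% in the kallisto format and was listed at 0 in replicate 2 in both. The short form, of 582 codons, led in each table. Its transcripts Mag-201 and Mag-203 share 2413 bases and differ by 6 and 21, and they changed places: in the RSEM format Mag-201 held 59.6% in replicate 1 and was listed at 0 in replicate 2, and Mag-203 was at 0 and 70.0%. The kallisto format gave Mag-203 79.3% and 84.3%. The shorter models Mag-205 (15.5% and 29.98%) and Mag-206 (12.2%, and 0 in replicate 2) had a share in the RSEM format and were listed at 0 in the kallisto format.

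The window before the upstream RefSeq start of Mag is shown because, of the 5 genes whose windows were searched (Pmp22, Mag, Prx, Egr2 and S100b), Mag alone had a SOX-type match. It lies at chr7:30914923-30915172 on the minus strand of GRCm38.p6, with a GC content of 61.2%. Capitals mark ATTGG, the reverse of CCAAT, 194 bases before the start, and CTTTGT, the reverse of the SOX-type letters ACAAAG, 67 bases before it.
Mag: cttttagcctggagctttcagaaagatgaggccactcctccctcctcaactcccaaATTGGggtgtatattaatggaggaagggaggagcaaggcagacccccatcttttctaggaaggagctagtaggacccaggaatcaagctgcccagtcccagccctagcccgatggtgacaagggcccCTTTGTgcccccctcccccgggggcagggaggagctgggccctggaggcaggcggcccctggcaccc
ACAAAG or its reverse was in 16.5% of all windows. The other letters searched on both strands, TATAAA, the SOX-type ACAAT and the EGR-type GCGNGGGCG, were in 12.4%, 27.7% and 4.70% of all windows and in none of the 14 windows of Pmp22, Mag, Prx, Egr2 and S100b.

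S100b, on chromosome 10 (76253853 to 76261159, plus strand), had 3.51 TPM in replicate 1 and 3.11 TPM in replicate 2 (mean 3.31 ± 0.283, SD), from 137 and 138 counts. It has 1 annotated transcript, of 92 codons, and its deposited bounds overlapped. Dip2a, on the opposite strand, overlaps it by 1731 bases and had 943 counts in replicate 1 and 767 in replicate 2. The sources used here do not say how the counting used strand, so the level of S100b is uncertain to that extent. Of the other members, Prx overlaps the antisense gene Gm15541, at 19 and 4 counts, and Mbp a pseudogene, Rpl21-ps8, at 2.57 and 1.48 counts.

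By mean TPM the order was Pmp22, Mbp, Prx, S100b, Sox10, Mag and Egr2. Pmp22 and Mbp, Mbp and Prx, Prx and S100b, and Mag and Egr2 did not overlap in their ranges over the 2 libraries. S100b, Sox10 and Mag could not be put in order: their ranges overlapped, Mag was the highest of them in replicate 1 and the lowest in replicate 2. Steps between the upper genes were wide, with Mbp above Prx by 5.09 and 5.74 times and Prx above S100b by 4.36 and 4.13 times in replicates 1 and 2. On the log2 scale of TPM, Pmp22 stood above Sox10 by 5.03 in replicate 1 and 5.18 in replicate 2.

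The difference between the libraries was also taken from counts, as the log2 ratio of replicate 1 over replicate 2 after scaling by TMM, which sets most genes near 0. None of the 7 genes differed by 2-fold or more, a size that 1.02% of the 11759 genes at or above a mean count of 100 reached. The ratios of the members were 0.19 for Sox10, 0.15 for Mag, -0.02 for Prx, -0.05 for Pmp22, -0.10 for S100b, -0.18 for Mbp and -0.22 for Egr2. Their median was -0.05, beside -0.08 over all genes, and 41.5% of genes were at least as far from 0 as Egr2. For Mbp the 95% counting interval, from -0.25 to -0.12, lay below 0, and the intervals of Prx, S100b, Sox10, Mag and Egr2 spanned 0. That of Pmp22 ran from -0.11 to 0.00. These intervals hold counting error only, not the spread between samples.

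Sox10 and Mag were above 0 under each scaling tried, and the sign of the other 5 ratios followed the scaling. Above 0 with TMM were 2 of the 7 members, beside 37.3% of all genes. With library totals all 7 were above 0, beside 73.9% of all genes, and with spike-ins all 7, beside 90.2%. These scalings move every gene up by the same amount, 0.24 and 0.39, so they leave the members' place among the genes as it was. The member median was 0.19 with totals and 0.34 with spike-ins, beside 0.16 and 0.31 over all genes.

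**Figure D3:**
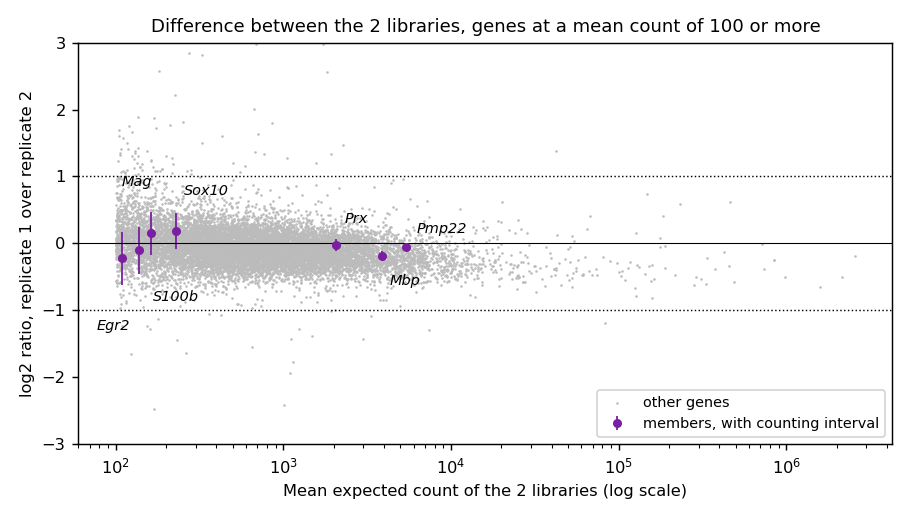
The log2 ratio of replicate 1 over replicate 2 after TMM scaling (vertical) against the mean expected count (horizontal, log axis) for genes with a mean count of 100 or more, with the members in purple and their 95% counting intervals as bars. The members lie between -0.22 and 0.19, inside the dotted lines at 2-fold, and 23 genes lie beyond the plotted range of 3.

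Of 19 other genes of myelin proteins and lipids, 15 were detected, and they summed to 132.2 TPM in replicate 1 and 112.4 TPM in replicate 2. Cd9, a tetraspanin also made by other cells, had 38.3 TPM in replicate 1 and 30.9 TPM in replicate 2. Pmp2, a lipid-binding myelin protein, had 12.5 and 9.93 TPM, and Cnp, an enzyme of the myelin-forming cell's cytoplasm, had 11.5 and 10.5 TPM. Pmp22 and Mbp stood above each of these 19 genes in both libraries, and Prx stood above all of them but Cd9.

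Of 22 genes of Schwann lineage and signalling, 15 were detected, with a sum of 135.9 TPM in replicate 1 and 102.8 TPM in replicate 2. Zeb2, a factor also found in connective tissue and immune cells, had 50.3 and 35.7 TPM, the adhesion molecule Ncam1, which developing muscle also makes, had 32.8 and 27.2 TPM, and Nab1, a cofactor of EGR proteins, had 8.79 and 7.19 TPM. No gene with enough counts differed by 2-fold, in 0 of 17 for the myelin list and 0 of 15 for the lineage list, beside the 1.02% above. Their median log2 ratios were -0.09 and 0.05, beside -0.08 over all genes.

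**Figure D4:**
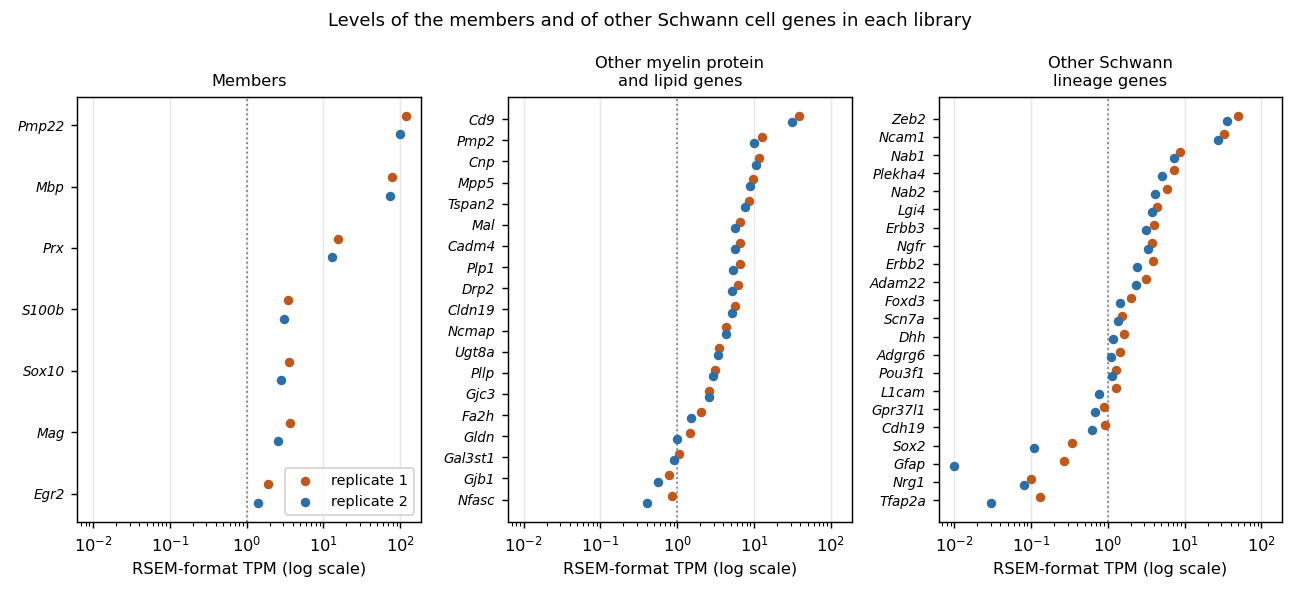
TPM on a log axis of the members (left), 19 other myelin genes (middle) and 22 other Schwann lineage genes (right), each ordered by its mean, with replicate 1 in orange and replicate 2 in blue and a dotted line at the detection limit of 1 TPM. Pmp22 and Mbp stand above every gene of the other lists, and most of those genes lie with the low members below 10 TPM.

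Relatives of 6 members, all but Mbp, were listed for comparison. Of the Pmp22 family 3 of 4 were detected, with Emp1 at 72.3 TPM in replicate 1 and 56.9 TPM in replicate 2, Emp3 at 24.7 and 18.2 TPM and Emp2 at 6.36 and 4.84 TPM, all below Pmp22. Among the Egr genes Egr1 stood above Egr2, at 7.53 and 5.25 TPM, Egr3 had 1.15 and 0.82 TPM, and Egr4 had no count in either library, under a floor of 3 counts. Sox8, of the same subgroup as Sox10, had 8.96 and 7.94 TPM, above Sox10 in both libraries, and Sox9 had 1.19 and 0.88 TPM. All 7 S100 relatives were detected and the highest were S100a11 (84.1 and 61.3 TPM), S100a10 (73.3 and 55.6 TPM) and S100a16 (54.7 and 57.0 TPM), each far above S100b.

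The relatives of Mag, lectins of immune cells, were low, with 1 of 5 detected: Cd33 had 1.74 and 1.20 TPM, Siglec1 0.60 and 0.57 TPM, and Cd22 1.00 and 0.03 TPM from 18 and 3 counts. Ahnak, the large relative of Prx that many cells make, had 118.1 TPM in replicate 1 and 92.8 TPM in replicate 2, and Ahnak2 had 8.25 and 4.89 TPM. Prx was thus below Ahnak and above Ahnak2 in both libraries.

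Markers of other cells that make some members were measured beside them. Mbp and Mag are also made by oligodendrocytes of the brain and spinal cord. Detected were 22.6% of all named genes, 52.3% of nuclear protein coding genes and none of 10 oligodendrocyte genes. Their sum was 1.38 TPM in replicate 1 and 0.87 TPM in replicate 2, from 66 and 35 counts, with Aspa at 0.65 and 0.73 TPM, Mobp at 0.34 and 0 TPM, Olig1 at 0.17 and 0.08 TPM and Opalin without a count. Sox10 is also made by melanocytes, whose 6 genes summed to 4.44 TPM in replicate 1 and 5.16 TPM in replicate 2. Mitf had 2.55 and 2.48, Pmel 1.05 and 0.97 and Dct 0.56 and 0.99 TPM. Only 1 of these 6, Mitf, was detected, and the lowest had a mean of 0.055 TPM. S100b is also made by fat and cartilage cells. The 6 adipocyte genes, of which 3 were detected, summed to 24.2 TPM in replicate 1 and 9.16 TPM in replicate 2. Cfd had 10.1 and 3.53, Adipoq 5.50 and 2.66 and Plin1 6.09 and 1.80 TPM, and the lowest gene had a mean of 0.195 TPM. The 6 cartilage genes, of which 4 were detected, summed to 72.3 and 47.0 TPM. Col11a2 had 46.7 and 26.3, Col2a1 14.7 and 11.5 and Comp 8.17 and 7.52 TPM, and the lowest gene had a mean of 0.035 TPM. The part of these cells in the levels of Mbp, Mag, Sox10 and S100b was not tested. Pmp22 has a downstream start that is also used outside the nervous system, and the part of other cells in its level was not tested either.

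Lists for other cells of nerve and muscle are given for scale. Fibroblast genes summed to 5744 TPM in replicate 1 and 3616 TPM in replicate 2, led by Col1a1 (3542 and 1887 TPM), Col3a1 (1617 and 1277 TPM) and Dcn (255.4 and 229.9 TPM). Genes of axons and neurons, of which 3 of 10 were detected and Chat had no count, summed to 20.6 and 12.99 TPM, with Uchl1 at 8.15 and 6.74, Gap43 at 6.52 and 3.78 and Stmn2 at 3.24 and 1.64 TPM. Macrophage genes summed to 76.4 and 55.0 TPM, led by Lyz2 (22.4 and 15.3), Csf1r (17.8 and 12.8) and Mrc1 (16.2 and 14.3 TPM). Perineurium and endoneurium genes summed to 15.98 and 12.76 TPM, with Etv1 at 3.78 and 3.44, Slc2a1 at 2.31 and 2.33 and Cldn1 at 2.77 and 1.76 TPM. The sums in replicate 1 were 1.59 times those in replicate 2 for fibroblasts, 1.59 for axons and neurons, 1.39 for macrophages and 1.25 for perineurium and endoneurium, beside 1.13 for the 7 members and the median of 1.14 over genes. Col1a1 made up most of the fibroblast sum in both libraries, and its log2 ratio after TMM scaling was 0.63. The 6 fibroblast genes had a median log2 ratio of 0.08, with 5 above 0 and Dcn the lowest at -0.13. After TMM scaling the 3 axon and neuron genes with enough counts had a median log2 ratio of 0.51, and all 3 were above 0, with Uchl1 at 0.03. The median was 0.24 for macrophages, with 4 of 6 above 0, and 0.08 for perineurium and endoneurium, with 3 of 6. Over all genes the median was -0.08, and 37.3% were above 0. Of the axon and neuron genes below that count limit, Snap25 had 36 counts in replicate 1 and 1 in replicate 2, Tubb3 42 and 5, and Nefl 17 and 0. Nefm had 10 and 2, Prph 42 and 30, and Nefh, the other way, 11 and 14. The part of these cells in the levels of the members was not tested.

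Of 6 genes used for terminal Schwann cells, those at the neuromuscular junction, 2 were detected in both libraries: Pdlim4 at 16.8 TPM in replicate 1 and 15.02 TPM in replicate 2, and Cspg4, which pericytes also make, at 14.02 and 10.0 TPM. Spp1, which macrophages and bone cells also make, had 107.1 TPM in replicate 1 and 0.57 TPM in replicate 2, from 3876 and 24 counts, and so made up most of that list's 139 TPM in replicate 1, against 26.5 TPM in replicate 2. Immediate early genes, which respond quickly to stimuli and share a class with Egr2, summed to 42.9 TPM in replicate 1 and 50.2 TPM in replicate 2. Nr4a1 had 9.97 and 23.2 TPM, Ier2 7.78 and 6.92 TPM and Fos 6.75 and 6.48 TPM. Their part in the level of Egr2 was not tested.

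**Figure D5:**
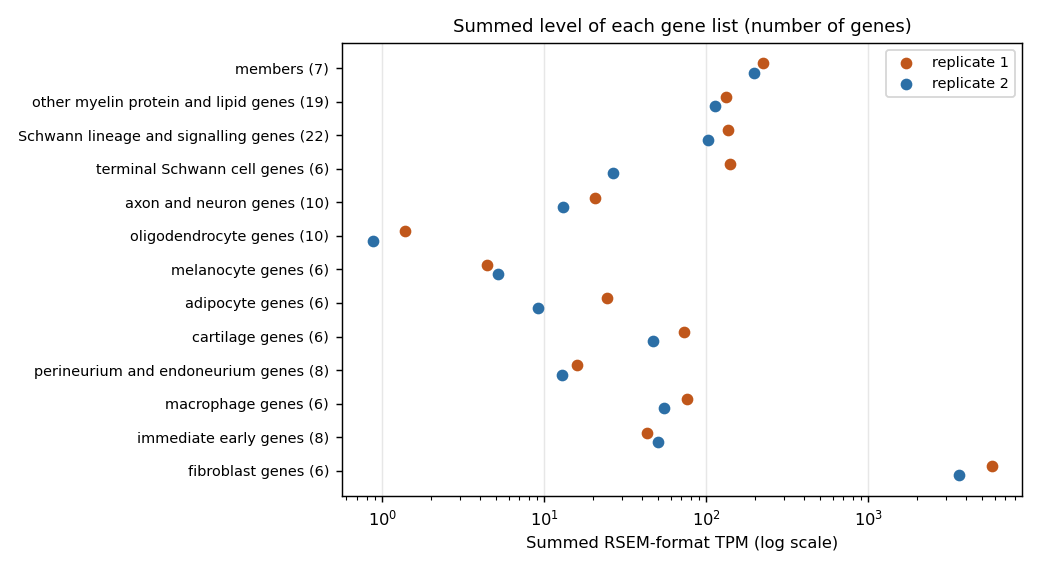
Summed TPM on a log axis of each gene list, with its number of genes in brackets, in replicate 1 (orange) and replicate 2 (blue). The oligodendrocyte list is the lowest, at 1.38 and 0.87 TPM, and the terminal Schwann cell list differs most between the libraries, at 139 and 26.5 TPM.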

How the data were processed

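Total RNA of 2 gastrocnemius libraries was analysed. Text files deposited with the tables give mm10 and GENCODE M21 as build and annotation. Which tools and versions made them is not given in the sources used here. Per the file headers, the deposited RSEM-format tables hold expected counts, TPM, interval bounds of TPM and the percent of a gene's abundance in each transcript (IsoPct), and the kallisto-format tables hold estimated counts and TPM. Both divide reads shared by several transcripts with a model.

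From these values, TPM per gene was read or summed over transcripts, and shares of transcripts, starts, coding forms and exons were formed from TPM. The detection limit was 1 TPM, to be reached in each library. Ratios between libraries used expected counts rounded to whole numbers, TMM scaling and a prior count of 0.5 in edgeR 4.0.16 (R 4.3.3), for genes whose counts averaged 100 or more, and no p was computed, since each side holds 1 library. The counting interval of a ratio is the exact 95% binomial interval of the pair of counts. The ratio code was tested on simulated data. Depth was 35925081 expected counts in replicate 1 and 39969380 in replicate 2, so a gene with 100 counts is known far less well than Pmp22. Left out were rows without a gene name, with 1.38e-05% (replicate 1) and 5e-06% (replicate 2) of the counts. Promoter windows are the 250 bases before each RefSeq start. Reads of CAST/EiJ alleles were assigned against the mm10 reference, and its effect on levels was not tested.

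Named are all 7 genes, of every other list the 3 highest by mean TPM and those without a count, and each transcript at 10% or more of its gene in any table. Of the axon and neuron list all genes are named. Genes of a list beyond these are given in the plots, and 1 gene of the myelin list is not reported here. The genes and lists were chosen with earlier results of these data known, and the CArG box was added to the motifs after the sequences were seen. The alternatives tried were the kallisto-format tables, other detection and count limits, DESeq2 1.42.0 size factors, library and spike-in totals, another prior count and each library alone.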

Additional observations from a re-analysis of the deposited data

How the results depend on the processing

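All 7 genes stayed detected with the kallisto format, a limit of 0.5 TPM and either library alone, and 6 at a limit of 2 TPM, where Egr2 was lost. Their share of TPM was 0.0346% with the kallisto format and 0.0458% over nuclear protein coding genes alone, against 0.0213%. It was 0.0200% to 0.0226% with 1 library left out. Of the counts of named genes the 7 genes held 0.0319%. Of 6 neighbouring pairs in the order, 4 stood the same way in both libraries in the RSEM format and 5 in the kallisto format, where Sox10 was above Mag in both. The count of genes past 2-fold was 120 with TMM, 189 with library totals, 286 with spike-in totals, 692 at a mean count of at least 20, 7452 without a count limit and 183 with kallisto-format counts. The median log2 ratio of the members was -0.05 with TMM, 0.19 with library totals, 0.34 with spike-in totals and -0.11 with kallisto-format counts, so its sign depends on the scaling. The scalings add 1 constant to every gene, so it says nothing of the members themselves that 2 of 7, Sox10 and Mag, had 1 sign under all 4. The leading transcript was the same in both libraries for 5 of 7 genes in the RSEM format, and 2 genes, Egr2 and S100b, had 1 leader in all 4 tables. Only 6 of the 7 genes have several annotated transcripts, and S100b, with 1, could not differ in either count. Depth limits Egr2, S100b, Mag and Sox10, at 104 to 252 counts, most. The causes of these differences between tables were not tested. No paired analysis was possible because the series holds 1 group.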
